A study of Mus musculus with 36 samples.

Results

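Expression of 7 genes named for olfactory sensory neurons and for the ensheathing glia that wrap their axons was described in sorted mouse brain cells: Omp, S100a5, Stoml3, Doc2g, Clca3a1, Frzb and Fbln2. They were chosen, with regional results of the same libraries known, as genes high in the olfactory bulb. They are 7 of the 25453 genes with a value and of the 13578 genes tested. The level of a gene is the summed FPKM of its transcripts, a read number scaled by transcript length and by library size. Since the genes were chosen by their FPKM difference between the olfactory bulb and the other regions, their regional levels are a description without a test, while differences between cell populations inside the olfactory bulb were tested.

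The series holds 36 RNA-seq libraries, 2 for each of 6 cell populations, A, B, C, D, E and Neg, in each of 3 brain regions of C57/Bl6 mice: olfactory bulb, cortex and brainstem. All groups carry the cell type label astrocyte, and no genotype, treatment, age, sorting antigen or meaning of Neg is given in the labels. The text of the series calls the material cell lines, while the sample labels call it mouse brain cells. Replicate 1 and 2 are numbers given here by the order of the samples, since the labels give no replicate number. The labels do not tell whether both libraries of a group are from separate mice, so a p-value here covers only how far these libraries differ, which may be technical.

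Omp-expressing sensory neurons sit in the nasal epithelium and send axons into the outer layer of the olfactory bulb, so their cell bodies are not part of the brain. Odorants act there through receptors coupled to the G protein subunit Gnal, the cyclase Adcy3 and the cyclic nucleotide-gated channel built from Cnga2 and Cnga4. Olfactory ensheathing glia are neural crest-derived cells that surround these axons in the nerve layer of the bulb and share Sox10 and Fabp7 with other glia.

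Relative sequencing depth, read as deposited coverage per FPKM, was 0.315 in olfactory bulb E replicate 1 and 0.0695 in brainstem E replicate 1. All other libraries had 1.16 to 4.08. Summed FPKM of all transcripts outside the mitochondrial genome also differed, from 26416 in olfactory bulb E replicate 1 to 131271 in olfactory bulb C replicate 1 within the bulb. Over the series it ran from 23005 to 163132. Orders of libraries and populations below are by FPKM without rescaling to a common sum, and may depend on this. Genes at 1 FPKM or more numbered 3691 to 10357 in the olfactory bulb and 2104 to 10357 in the series. The libraries labelled brainstem D replicate 2 and cortex E replicate 2 went against their region labels for the genes described here. The first had 7 of the 7 genes inside the range of the 12 olfactory bulb libraries, and the second had 6 of 7. Both keep their labels below, and values that rest on them are also given without them.

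Upstream sequence is shown for the gene with the widest regional difference, S100a5, for a further gene of the sensory group, Stoml3, and for Clca3a1 of the ensheathing group, since all 3 were chosen for high levels in the olfactory bulb; within the bulb their levels did not follow each other, as given below. RefSeq (GRCm38.p6) gave a start site for 6 of the 7 genes, and the bases before it are printed 5′ to 3′ on the strand of the gene as far as they lie outside the GENCODE gene. The S100a5 stretch is chr3:90608272-90608521 (+ strand, 250 bases), that of Stoml3 is chr3:53488457-53488652 (+ strand, 196 bases) and that of Clca3a1 is chr3:144760978-144761227 (− strand, 250 bases). Capitals mark every match, on either strand, to 4 motifs. These were TAATTA of homeodomain proteins, ACAAAG of Sox factors, the E-box CANNTG bound by basic helix-loop-helix factors, and TATAAA of core promoters, here called the TATA motif.
S100a5: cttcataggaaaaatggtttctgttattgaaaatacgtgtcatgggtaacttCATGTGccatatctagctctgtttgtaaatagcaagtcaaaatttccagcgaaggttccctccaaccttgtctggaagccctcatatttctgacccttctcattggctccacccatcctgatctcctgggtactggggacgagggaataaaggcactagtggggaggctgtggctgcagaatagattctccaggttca
Stoml3: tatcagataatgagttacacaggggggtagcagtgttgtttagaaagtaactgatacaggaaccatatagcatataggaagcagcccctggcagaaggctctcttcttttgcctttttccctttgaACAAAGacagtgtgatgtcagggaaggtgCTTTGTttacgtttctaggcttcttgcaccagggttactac
Clca3a1: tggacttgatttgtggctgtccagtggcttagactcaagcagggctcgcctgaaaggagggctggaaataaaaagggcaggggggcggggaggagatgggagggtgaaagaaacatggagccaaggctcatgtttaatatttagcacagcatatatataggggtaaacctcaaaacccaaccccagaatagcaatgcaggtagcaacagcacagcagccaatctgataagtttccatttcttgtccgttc
S100a5 had 1 E-box match, Stoml3 had 2 Sox matches and Clca3a1 had none of the 4 motifs in these bases. Over the full 250 bases, matches to the E-box were found in 66.2% of 32851 RefSeq promoters, to the Sox motif in 16.5%, to the TATA motif in 12.4% and to the homeodomain motif in 4.84%. Doc2g had 3 E-box matches in that window, and Frzb and Fbln2 had 1 each. None of the 6 genes with a RefSeq start had a homeodomain or TATA match. GC content was 46.0% for S100a5, 46.8% for Stoml3 and 48.8% for Clca3a1, against a median of 52.4% over all promoters, and 64.4% for Frzb.

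Omp encodes the olfactory marker protein, a small cytoplasmic protein of mature olfactory sensory neurons (chromosome 7, 98143359 to 98145502, − strand, GRCm38, protein coding). Its olfactory bulb levels were 24.5 and 26.6 FPKM in A, 11.0 and 31.3 in B, 20.7 and 11.5 in C, 16.5 and 9.08 in D, 4.65 and 5.32 in E and 24.2 and 17.2 in Neg. Omp averaged 16.9 ± 8.73 FPKM (SD, n = 12) in the olfactory bulb and 1.43 ± 5.9 FPKM (SD, n = 24) in the cortex and brainstem, a log2 difference of 3.55 ± 0.26 (SE). All 12 bulb libraries were above the 22 other-region libraries other than the pair that went against their labels, in which Omp was highest at 1.8 FPKM and listed at 0 in 16. By FPKM the E libraries were the lowest of the bulb.

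S100a5, a calcium-binding protein of the S100 family that olfactory sensory neurons express (chromosome 3, 90608523 to 90611780, + strand, protein coding), was the most abundant of the 7 genes by mean FPKM. In the bulb it reached 131 and 90.5 FPKM in A, 56.3 and 48.1 in B, 132 and 62.6 in C, 81.9 and 20.5 in D, 22.2 and 17.0 in E and 126 and 106 in Neg. Its mean was 74.5 ± 43.2 FPKM in the bulb (SD, n = 12) and 3.85 ± 11.6 in the other regions (SD, n = 24), a log2 difference of 5.22 ± 0.42 (SE). That difference ranked 1 of the 13578 genes tested, and the gene was listed at 0 in 18 of the 22 other-region libraries that kept to their labels. Brainstem A replicate 1 and brainstem C replicate 1, at 4.92 and 4.57 FPKM, held the highest values among those 22.

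Stoml3 encodes a stomatin-family membrane protein found in the cilia of olfactory sensory neurons and in touch-sensing neurons (chromosome 3, 53488653 to 53508502, + strand, protein coding). The bulb values were 35.5 and 44.6 FPKM in A, 14.3 and 26.0 in B, 43.1 and 54.8 in C, 48.7 and 53.4 in D, 5.55 and 61.0 in E and 62.4 and 72.4 in Neg. Levels averaged 43.5 ± 20 FPKM in the bulb (SD, n = 12) and 3.66 ± 10.7 in the other regions (SD, n = 24), a log2 difference of 4.39 ± 0.43 (SE). Of the 22 other-region libraries, 2 reached the lowest bulb value: brainstem B replicate 1 at 9.8 FPKM and brainstem C replicate 1 at 6.45 FPKM. That lowest bulb value belonged to olfactory bulb E replicate 1, the bulb library of lowest depth, and the E pair differed more than any other pair of the bulb for this gene.

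Doc2g, a C2-domain protein of the Doc2 family (chromosome 19, 4003313 to 4007005, + strand, protein coding), had bulb levels of 53.0 and 32.4 FPKM in A, 6.93 and 11.4 in B, 33.8 and 12.4 in C, 28.3 and 9.88 in D, 2.29 and 22.8 in E and 31.8 and 35.9 in Neg. Its mean was 23.4 ± 15 FPKM in the bulb (SD, n = 12) and 0.832 ± 2.31 in the other regions (SD, n = 24), a log2 difference of 3.85 ± 0.33 (SE). Among the 22 other-region libraries, brainstem C replicate 1, at 2.33 FPKM, reached the lowest bulb value. Both B libraries stood below both libraries of A, C and Neg.

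Clca3a1 encodes a protein of the family of calcium-activated chloride channel regulators (chromosome 3, 144729677 to 144760977, − strand, protein coding). It differed from the genes above in its order over populations, with 22.1 and 28.5 FPKM in A, 50.8 and 30.0 in B, 7.52 and 18.2 in C, 22.8 and 57.8 in D, 17.1 and 38.7 in E and 6.16 and 11.8 in Neg. The bulb mean was 26.0 ± 16.3 FPKM (SD, n = 12), against 2.99 ± 8.36 in the other regions (SD, n = 24), a log2 difference of 3.72 ± 0.32 (SE). Brainstem D replicate 1, at 6 FPKM, was the highest of the 22 other-region libraries and lay just below the lowest bulb library. Most of the gene's bulb level, 24.6 FPKM on average, fell on the transcript uc008rpx.2, and uc008rpy.2 averaged 1.35 FPKM and was listed at 0 in 8 of the 12 bulb libraries.

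Frzb, a secreted protein that binds Wnt ligands (chromosome 2, 80411970 to 80447625, − strand, protein coding), was found at 32.3 and 27.6 FPKM in A, 76.6 and 41.5 in B, 14.4 and 14.4 in C, 20.0 and 37.6 in D, 9.73 and 19.7 in E and 13.2 and 16.6 in Neg of the bulb. It averaged 27.0 ± 18.7 FPKM in the bulb (SD, n = 12) and 3.86 ± 9.77 in the other regions (SD, n = 24), a log2 difference of 3.43 ± 0.27 (SE). The B libraries were the 2 highest of the bulb. Frzb was the gene most often found outside the bulb, where it was listed at 0 in 6 of the 22 libraries and reached 6.22 FPKM in brainstem D replicate 1, 5.53 FPKM in cortex E replicate 1 and 4.21 FPKM in brainstem A replicate 2. None of these reached the lowest bulb value.

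Fbln2, the matrix glycoprotein fibulin-2 (chromosome 6, 91212455 to 91272540, + strand, protein coding), was the lowest of the 7 genes in the bulb by mean. It had 14.8 and 8.76 FPKM in A, 28.4 and 20.8 in B, 5.78 and 5.81 in C, 14.0 and 6.48 in D, 2.55 and 0.885 in E and 19.9 and 1.29 in Neg. The mean was 10.8 ± 8.77 FPKM in the bulb (SD, n = 12) and 0.973 ± 1.63 in the other regions (SD, n = 24), a log2 difference of 2.41 ± 0.29 (SE) that ranked 33 of 13578, against ranks of 1 to 8 for the other 6 genes. Here the regions overlapped, since 6 of the 22 other-region libraries reached the lowest bulb value, that of E replicate 2. The level was summed over 3 transcripts, uc009cxw.1 at 4.53, uc009cxx.1 at 4.5 and uc009cxy.1 at 1.75 FPKM on average in the bulb. They were listed at 0 in 3, 4 and 10 of the 12 bulb libraries, in that order. Of the 19.9 FPKM in Neg replicate 1, 19.2 came from uc009cxy.1, a short transcript of 578 bases. With uc009cxx.1 alone, which had the highest mean over all 36 libraries, the log2 difference was 1.24.

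**Figure D1:**
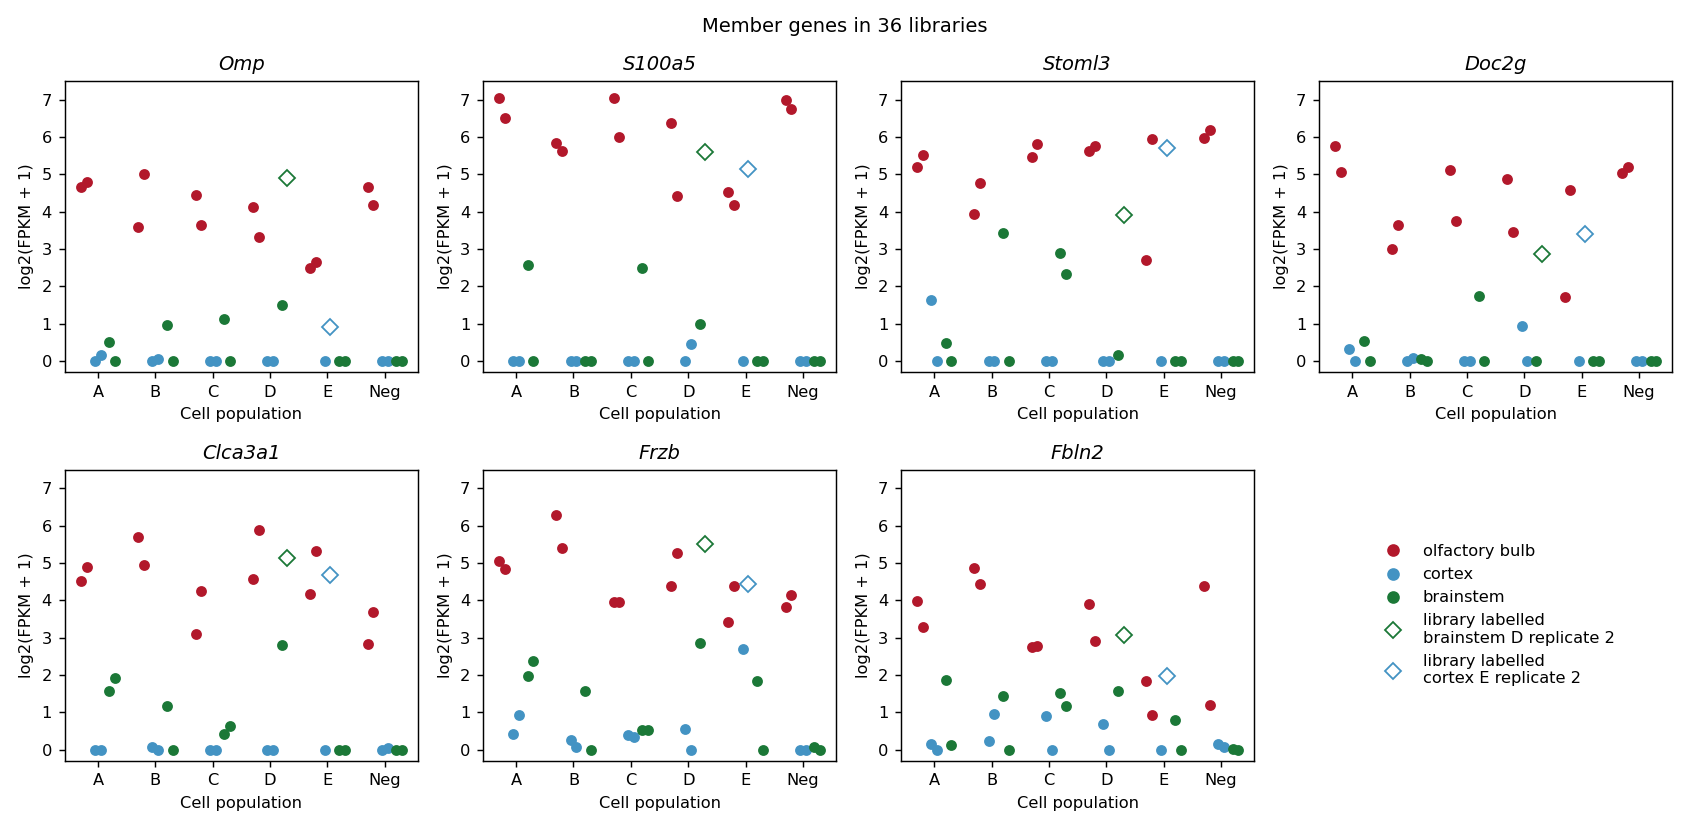
Level of each of the 7 genes in every library as log2(FPKM + 1), by cell population on the x axis and with regions in colour; each filled point is 1 library and open diamonds are the libraries that went against their region labels. Olfactory bulb libraries sit above nearly all others, and the diamonds lie among them except for Omp in cortex E replicate 2, at 0.878 FPKM.

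Summed over the 7 genes, the bulb libraries held 64.1 to 314 FPKM with a median of 238. The 11 brainstem libraries that kept to their label held 0 to 17.2 FPKM with a median of 6.24, and the 11 cortex libraries held 0.0736 to 5.53 with a median of 1.04. A gene at 1 FPKM or more was found in 7 of those brainstem libraries and in 2 of those cortex libraries. In bulk RNA, fewer cells of a type and less RNA per cell cannot be told apart.

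The interval that the authors deposited with each transcript excluded 0 for Omp, S100a5, Stoml3, Doc2g and Frzb, the genes with a single transcript, in all 12 bulb libraries. Of the 22 other-region libraries that kept to their labels, it excluded 0 in 4 for Omp, 2 for S100a5, 4 for Stoml3, 2 for Doc2g and 14 for Frzb. Low levels of Frzb outside the bulb were therefore measured above their counting error in most of these libraries.

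Reads of neighbouring or related genes were checked. Omp lies inside Capn5 (chromosome 7, 98121559 to 98178274, same strand), which averaged 1.36 FPKM in the bulb and 2.26 in the other regions and was not called (adjusted p = 0.539). Of the neighbours of S100a5 in the S100 cluster, S100a4 averaged 0.891 FPKM in the bulb and 1.6 elsewhere (adjusted p = 0.551), and S100a6 averaged 9.8 FPKM in the bulb and 7.3 elsewhere (adjusted p = 0.378). Clca3a2, the paralog of Clca3a1, was listed at 0 in all 12 bulb libraries, and so was Gm34866, which lies antisense within Clca3a1. Doc2g shares bases with Gm49405 on the same strand, which was at most 0.628 FPKM in the bulb and 1.23 FPKM elsewhere.

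The library labelled brainstem D replicate 2 had 29.1 FPKM of Omp, 47.4 of S100a5, 13.9 of Stoml3, 6.34 of Doc2g, 34.2 of Clca3a1, 44.8 of Frzb and 7.35 of Fbln2. Its partner, brainstem D replicate 1, had 1.8, 0.985, 0.115, 0, 6, 6.22 and 1.99 FPKM of the same genes in that order. Omp and Frzb in the first library were exceeded by 1 of the 12 bulb libraries each, while Stoml3 and Doc2g were exceeded by 11 each.

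In the library labelled cortex E replicate 2 the levels were 0.878 FPKM of Omp, 34.1 of S100a5, 51.0 of Stoml3, 9.62 of Doc2g, 24.5 of Clca3a1, 20.8 of Frzb and 2.93 of Fbln2. Cortex E replicate 1 had 5.53 FPKM of Frzb and was listed at 0 for the other 6. Omp alone was outside the bulb range: the deposited interval for cortex E replicate 2 was 0.51 to 1.25 FPKM, while the lowest bulb library, E replicate 1, had 4.65 FPKM with an interval of 2.33 to 6.98. S100a5 was 38.8 times Omp in cortex E replicate 2 and 1.63 times in brainstem D replicate 2, against 1.54 to 6.36 times in the 12 bulb libraries.

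Sums of some other marker lists lay outside the range of the labelled region in these libraries, and sums of the others lay within both that range and the bulb range. The summed list of bulb interneuron and neuroblast genes was 153 FPKM in the library labelled brainstem D replicate 2 and 135 in that labelled cortex E replicate 2, against 63.2 to 224 in the bulb, 9.25 to 43.3 in the other brainstem libraries and 17.8 to 59.4 in the other cortex libraries. The 10 Hox genes that mark the hindbrain summed to 0 FPKM in the library labelled brainstem D replicate 2, and likewise in brainstem B replicate 2, with up to 7.92 in the other brainstem libraries. Ensheathing glia genes summed to 4830 FPKM in the library labelled brainstem D replicate 2 and 2530 in that labelled cortex E replicate 2, against 758 to 4320 in the bulb, 308 to 1420 in the other brainstem and 154 to 923 in the other cortex libraries. Mature oligodendrocyte genes summed to 1050 FPKM in the library labelled brainstem D replicate 2. The other brainstem libraries held 1520 to 13200 and the bulb 531 to 1960. Olfactory sensory genes summed to 116 FPKM in that library, against 8.54 to 58.3 and 41.8 to 163 in that order. In the library labelled cortex E replicate 2 these sums, 1460 and 62.3 FPKM, lay within the bulb range and that of the other cortex libraries. Sums of the mitral and tufted, astrocyte, general neuron and cortex lists lay, in both libraries, within the bulb range and within that of the labelled region. Without both libraries the log2 differences were 3.73 for Omp, 5.63 for S100a5, 4.78 for Stoml3, 4.11 for Doc2g, 4.01 for Clca3a1, 3.62 for Frzb and 2.55 for Fbln2.

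The titles number the libraries in 2 series, not stated to be batches, and the second holds all of D and E. It also holds cortex A replicate 2, brainstem A replicate 2 and brainstem B replicate 2, while the bulb libraries of A and B are in the first. Series and region are thus partly mixed within A and B. Within the first series the median difference of the 7 genes was 4.12, against 3.72 in all libraries. Over D and E the differences ran from 1.38 for Fbln2 to 3.8 for Stoml3, and from 1.81 for Fbln2 to 4.98 for Stoml3 without the libraries labelled brainstem D replicate 2 and cortex E replicate 2.

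**Figure D2:**
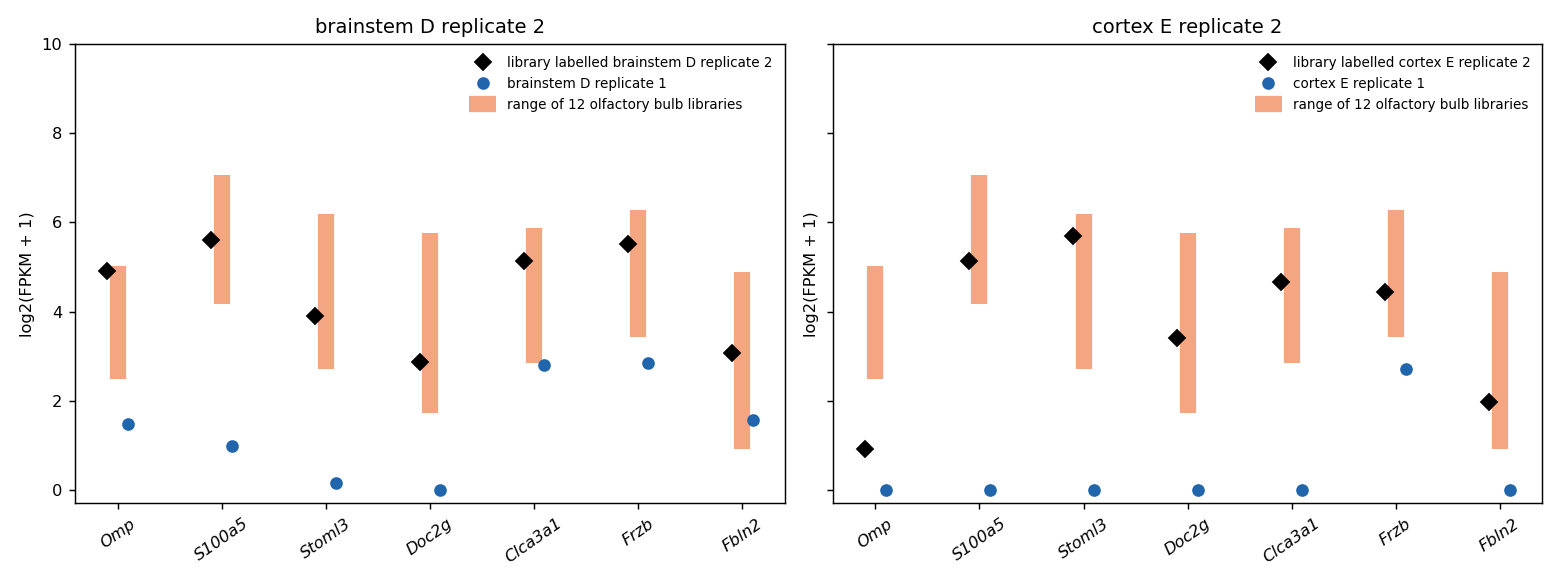
Level of the 7 genes as log2(FPKM + 1) in each library that went against its region label (diamonds), in the other library of its group (circles) and over the 12 olfactory bulb libraries (bars from lowest to highest). The diamonds lie within the bars for 7 of 7 genes in brainstem D replicate 2 and for 6 of 7 in cortex E replicate 2.

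Differences between the 6 populations of the olfactory bulb were asked of each gene. None of the 7 genes was called by limma's F test at an adjusted p under 0.05, and 1 had an unadjusted p under 0.05, where 138 of 13578 genes were called, 1.02%, and 2574, 19.0%, had such an unadjusted p. Adjusted p was 0.152 for Fbln2, 0.347 for Omp, 0.355 for Frzb, 0.378 for Doc2g, 0.447 for Clca3a1, 0.551 for S100a5 and 0.815 for Stoml3. When each population was set against the mean of the other 5, 0 of the 42 pairs of gene and population were called and 6 had an unadjusted p under 0.05, where 10.7% of all tests in these contrasts did. Over all genes these contrasts called 12 genes in A (0.0884%), 241 in B (1.77%), 4 in C (0.0295%), 5 in D (0.0368%), 625 in E (4.6%) and 5 in Neg (0.0368%).

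In E, where 28.3% of the genes tested had an unadjusted p under 0.05, 3 of those 6 were found. Omp was at 4.99 ± 0.47 FPKM in E (SD, n = 2), against 19.3 ± 7.44 over the remaining bulb libraries (SD, n = 10), and its log2 difference was -1.66 ± 0.57 (SE; adjusted p = 0.0759). Both E libraries were below the other 10 by FPKM, and E replicate 1 also had the lowest summed FPKM of the bulb libraries, 26416. Whether this order holds after rescaling is not given here. Fbln2 averaged 1.72 ± 1.18 FPKM in E and 12.6 ± 8.48 in the other 10 libraries, a difference of -2.08 ± 0.64 (adjusted p = 0.0539), and Neg replicate 2 lay between the E values.

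S100a5 averaged 19.6 ± 3.62 FPKM in E and 85.5 ± 38.5 in the others (SD, n = 2 and n = 10), with a log2 difference of -1.91 ± 0.91 (SE; adjusted p = 0.169), with D replicate 2 between the E values. In the same contrast the median log2 difference of all genes was -0.70. Olfactory bulb E replicate 1 was the bulb library of lowest depth, at 0.315 against 1.9 in E replicate 2, and the part of depth in these values was not tested. The E libraries lay close together for Omp and S100a5 and far apart for Stoml3 and Doc2g.

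Population B, in which 13.4% of the genes tested had an unadjusted p under 0.05, was the highest for Frzb and Fbln2. Frzb was at 59.0 ± 24.8 FPKM in B (SD, n = 2), against 20.6 ± 9.08 over the remaining libraries (SD, n = 10), with a log2 difference of 1.52 ± 0.59 (SE; adjusted p = 0.235). Fbln2 averaged 24.6 ± 5.38 FPKM in B and 8.02 ± 6.34 in the others, a difference of 1.87 ± 0.64 (adjusted p = 0.148). For both genes the B libraries were above the other 10, in a contrast whose median over all genes was 0.41.

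In Neg, Clca3a1 averaged 8.99 ± 3.99 FPKM (SD, n = 2), against 29.4 ± 15.6 over the remaining libraries (SD, n = 10), with a log2 difference of -1.48 ± 0.71 (SE; adjusted p = 0.712). C replicate 1, at 7.52 FPKM, lay between the Neg values. In this contrast 6.94% of the genes tested had an unadjusted p under 0.05, and the median of all genes was -0.25. The first series of library numbers alone leaves out D and E, so A, B, C and Neg were each set against the others of these. Clca3a1 in Neg (log2 difference -1.31) and Frzb in B (1.55) were then called. Without both libraries that went against their labels, Omp in E (-1.66) and Fbln2 in E (-2.08) were called. Their log2 differences did not change, since those libraries lie outside the bulb and enter only through the shared estimate of the spread. The share of all genes called in these alternative contrasts is not given here. Series and population cannot be told apart for D and E.

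How the 7-gene sum was split between Clca3a1, Frzb and Fbln2 and the other genes also varied over the bulb libraries, given here without a test. Whether this split follows the balance of sensory axons and ensheathing glia was not tested. Clca3a1, Frzb and Fbln2 together made up 22.1% and 25.1% of the 7-gene sum in A, 63.8% and 44.1% in B, 10.8% and 21.4% in C, 24.4% and 52.3% in D, 45.9% and 35.9% in E and 13.8% and 11.4% in Neg. Shares in B and E lay above all shares in A, C and Neg, while the D libraries were far apart. The library labelled brainstem D replicate 2 had a share of 47.2%, and that labelled cortex E replicate 2 had 33.5%.

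**Figure D3:**
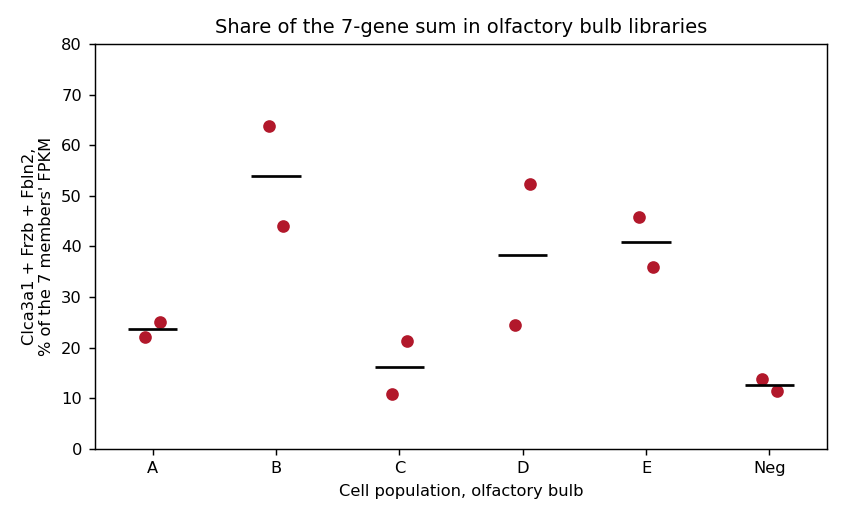
Share of Clca3a1, Frzb and Fbln2 in the summed FPKM of the 7 genes, in percent, for the 6 populations of the olfactory bulb; points are libraries and lines their mean. The shares run from 10.8% in C replicate 1 to 63.8% in B replicate 1.

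Over the 12 bulb libraries pairs of the genes varied together to different degrees, given here as Pearson r of log2(FPKM + 1) without a test, since the points share libraries, depth and population. Among Omp, S100a5, Stoml3 and Doc2g r was 0.81 for Omp and S100a5, 0.77 for Stoml3 and Doc2g, 0.70 for S100a5 and Doc2g and 0.64 for Omp and Doc2g, but 0.36 for Omp and Stoml3 and 0.33 for S100a5 and Stoml3. Among the others it was 0.74 for Clca3a1 and Frzb, 0.56 for Frzb and Fbln2 and 0.09 for Clca3a1 and Fbln2. Between both groups it ran from -0.64 for S100a5 and Clca3a1 to 0.58 for Omp and Fbln2, with 0.41 for S100a5 and Fbln2, so the 7 genes did not fall cleanly into 2 sets. Over all 36 libraries, where the region sets both values of a pair, r was between 0.78 and 0.96.

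Genes whose levels over the 36 libraries were most like each of the 7 were found among all genes tested. Lgr5, a receptor for R-spondins, came first for Omp (r = 0.94) and was also among the 3 most like S100a5 (r = 0.91). Gad1, the GABA-synthesizing enzyme, came first for S100a5 and Doc2g (r = 0.93 each) and second for Stoml3 (r = 0.91), for which Sp9, a transcription factor of interneuron precursors, was first (r = 0.91). Npy, a neuropeptide also made by ensheathing glia, was first for Clca3a1 (r = 0.94) and second for Frzb (r = 0.92), after Fndc1 (r = 0.93).

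Over all 36 libraries the regional difference enters both values of a pair. Within the 12 bulb libraries, where it does not, all of these likenesses were weaker. The r of Npy was 0.81 with Frzb and 0.56 with Clca3a1, that of Gad1 0.86 with Doc2g and 0.69 with S100a5, and that of Lgr5 0.67 with Omp. Pbx3, likewise for Stoml3 at 0.90 over all libraries, had r = 0.06 within the bulb. Grik3, a kainate receptor subunit, was the gene most like Fbln2 (r = 0.87 over 36 libraries and 0.47 over the 12).

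Genes of the same cell types that were not among the 7 were then counted in the region contrast, where limma called 1223 of 13578 genes higher in the bulb, 9.01%, and 93 lower, 0.685%, or 1316 in either direction, 9.69%, with a median log2 difference of 0.23 over all genes. All lists were chosen with earlier results of these data known, so their counts and p-values are not independent support. Of 25 listed olfactory sensory genes, 17 were tested, 2 were higher in the bulb and none lower, and the median difference was 0.19. Gng13, a G protein gamma subunit, averaged 43.2 ± 26.6 FPKM in the bulb (SD, n = 12) and 8.8 ± 8.74 elsewhere (SD, n = 24) and rose by 2.42 ± 0.37 (SE, adjusted p = 4.74e-05). Pde1c, a phosphodiesterase of sensory cilia, averaged 2.39 FPKM in the bulb and 1.1 elsewhere, a difference of 0.67 ± 0.19 (adjusted p = 0.0194). Its call was lost in 6 of 46 alternative analyses, among them quantile normalization (adjusted p = 0.684) and rescaling (adjusted p = 0.074). Without both libraries that went against their labels, 3 of the sensory genes, 9 of the ensheathing glia genes and 3 of the mitral and tufted cell genes were higher.

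Of the receptor-coupled transduction genes named above, Gnal and Adcy3 were tested and not called. Gnal averaged 5.89 FPKM in the bulb and 5.68 in the other regions, a difference of 0.16 ± 0.27 (adjusted p = 0.75), and Adcy3 averaged 0.483 FPKM in the bulb and 0.433 elsewhere (adjusted p = 0.734). Cnga2, at 0.138 FPKM in the bulb and 0.097 elsewhere, and Cnga4, at 0.13 FPKM in the bulb and 0.0297 elsewhere, were too low to be tested. In all, 8 of the 25 genes were not tested. Summed over the list, the bulb libraries held 41.8 to 163 FPKM, the other cortex libraries 34.7 to 157 and the other brainstem libraries 8.54 to 58.3, so that the bulb and cortex ranges overlapped.

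Of 14 listed ensheathing glia genes, 13 were tested, 8 were higher in the bulb and 1 lower, with a median log2 difference of 0.98. Npy ranged in the bulb from 19.2 to 556 FPKM with a median of 185, against a median of 0.592 FPKM elsewhere, and rose by 5.22 ± 0.51 (SE, adjusted p = 4.83e-08). Fabp7, a brain fatty acid binding protein, ranged from 574 to 3440 FPKM in the bulb, against a median of 67.8 elsewhere, and rose by 4.65 ± 0.48 (adjusted p = 1.39e-07). In the other regions both genes were highest in the library labelled brainstem D replicate 2, at 440 and 3780 FPKM.

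Foxd3, a neural crest transcription factor, rose by 2.00 ± 0.26 (adjusted p = 6.33e-06), Sox10, a transcription factor of neural crest and oligodendrocyte lineages, by 1.40 ± 0.33 (adjusted p = 0.00511), Matn2, a matrix protein, by 1.38 ± 0.29 (adjusted p = 0.00187) and Prss56, a serine protease, by 1.27 ± 0.17 (adjusted p = 9.48e-06). Erbb3, a neuregulin receptor, was higher by 0.98 ± 0.19 (adjusted p = 0.000645), and Ngfr, the low-affinity neurotrophin receptor, by 0.59 ± 0.19 (adjusted p = 0.0444). Sostdc1, a secreted antagonist of BMP and Wnt signals, fell by 1.72 on the log2 scale (adjusted p = 0.0393). The call of Ngfr was lost in 30 and that of Sostdc1 in 26 of 46 alternative analyses.

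Across the 6 bulb populations 2 of the 13 ensheathing genes tested were called by the F test, Prss56 (adjusted p = 0.000722) and Sox10 (adjusted p = 0.0474), where 1.02% of all genes were. Prss56 had 5.93 and 3.33 FPKM in A, 8.24 and 11.9 in B, 1.06 and 4.31 in C, 0.291 and 1.59 in D and was listed at 0 in both libraries of E and of Neg. Sox10 had 49.5 and 29.1 FPKM in A, 28.8 and 60.8 in B, 10.9 and 12.9 in C, 13.9 and 31.8 in D, 1.42 and 1.56 in E and 4.54 and 4.48 in Neg. Both were lowest in E and Neg and highest in B replicate 2.

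Markers of other cell types of the bulb, from lists also chosen with earlier results known, were counted next. Of 16 genes of bulb interneurons and neuroblasts, 14 were higher and none lower, with a median log2 difference of 1.97, among them Gad1 (3.28 ± 0.34, adjusted p = 1.25e-07), Dlx1 (2.61 ± 0.27), Dcx of migrating neuroblasts (2.50 ± 0.32) and Th, the dopamine-synthesis enzyme (1.69 ± 0.15). Of 8 mitral and tufted cell genes tested, with a median of 0.22 against 0.23 over all genes, 3 were higher: the neuropeptide gene Cck (1.44 ± 0.40, adjusted p = 0.0208), the cadherin-related Cdhr1 (1.38 ± 0.16, adjusted p = 1.15e-06) and the transcription factor Eomes (1.09 ± 0.14, adjusted p = 5.18e-06). The call of Cck was lost in 5 of 46 alternative analyses. Tbx21, which marks mitral and tufted cells, averaged 0.0251 FPKM in the bulb and 0.00842 elsewhere. The part of these cell types in the levels of the 7 genes was not tested.

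Lists of cells around the nerve layer and of the labelled cell type were counted in the same way. None of the 11 astrocyte genes, the 8 fibroblast and meninges genes tested, the 6 microglia genes or the 2 tested genes of non-neuronal olfactory epithelium was called by limma, with median differences of -0.09, -0.25, -0.41 and 0.14 for the lists in that order. At an unadjusted p under 0.05 there were 2, 0, 1 and 0 such genes, where 24.9% of all genes tested had such a p. Krt14 and Ascl3 of the epithelium were listed at 0 in every library, and Krt5 in every bulb library. Of 7 mature oligodendrocyte genes 4 were lower in the bulb and none higher, with Mbp, a main protein of myelin, at 1050 FPKM in the bulb and 3520 elsewhere (-1.56 ± 0.29, adjusted p = 0.000558).

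**Figure D4:**
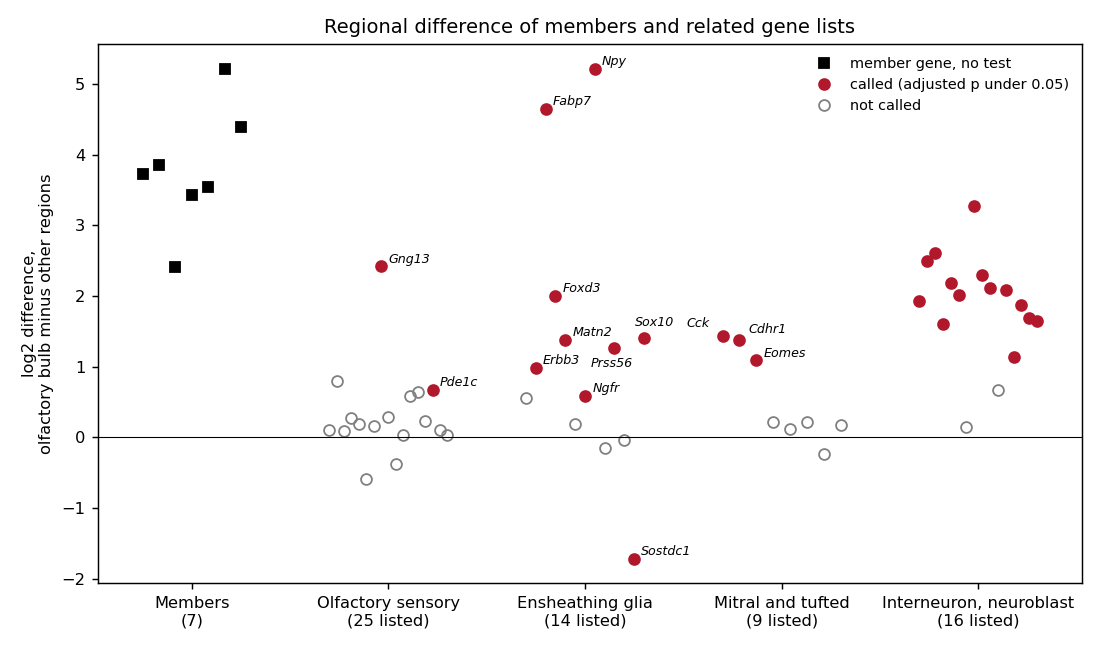
Log2 difference of olfactory bulb minus the other regions for the 7 genes (squares, no test) and for the tested genes of 4 related lists (circles, filled where called by limma at an adjusted p under 0.05). Of the sensory list Gng13 and Pde1c are filled, and of the bulb interneuron list 14 of 16.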

How the data were processed

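RNA was measured in 36 libraries in 18 groups. Libraries came, per the labels, from NuGEN Ovation V2 cDNA, which does not keep strand. Per the submitters' processing notes, bcl2fastq 1.8.3, TopHat and Cufflinks were used with mm10. The authors deposited, per transcript, FPKM with an interval, coverage (a signal, used here for depth) and length. The 7 genes and all lists were chosen with earlier results of these data known.

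Of 63241 transcripts, 52543 (83.1%) were assigned by overlap to GENCODE vM21 genes (score of at least 0.5, lead of 0.1), and FPKM was summed per gene. Genes with at least 1 FPKM in 2 libraries, 13578 in all, were fitted on log2(FPKM + 1) with limma 3.58.1 (R 4.3.3), using 18 group means, a variance trend and 18 residual degrees of freedom. This scale understates differences of low genes. Two-sided tests were adjusted by Benjamini-Hochberg and called under 0.05. The region contrast was olfactory bulb minus the mean of cortex and brainstem, with populations weighted equally. The code was tested on simulated data. Named genes were all 7, up to 6 called genes per list with the largest differences, defining markers, the 3 most alike genes and overlapping genes or paralogs. Prss56, Erbb3, Ngfr, Th, Krt5, Krt14 and Ascl3 were named after their values were seen, and 1 defining marker is not reported here. Of the neuron, cortex and hindbrain lists, with 7, 7 and 4 genes tested, 4, 1 and 0 were higher and 2, 0 and 0 lower. At an unadjusted p under 0.05 there were 0 of 4 hindbrain genes, against 24.9% of all genes tested. Deposited intervals cover counting error only.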

Additional observations from a re-analysis of the deposited data

How the results depend on the processing

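No paired analysis was possible because the labels give no replicate numbers. The median log2 difference of the 7 genes was 3.72. It was 6.07 with a pseudocount of 0.1 and 6.36 after rescaling, where the pseudocount weighs less, and 3.53 to 3.92 with each library left out in turn. Olfactory sensory genes higher in the bulb numbered 2, and 1 after rescaling or quantile normalization. Leaving out single libraries gave 1 to 3, with 1 without olfactory bulb A replicate 2 or D replicate 2. The ensheathing count of 8 ranged from 7 to 8 over these, and was 9 without both libraries that went against their labels. The mitral and tufted count of 3 ranged from 2 to 3. Genes called in either direction between regions, 1316, ranged from 937 to 2027 with single libraries left out, the highest without cortex D replicate 1, and from 894 after quantile normalization to 1792 without both libraries that went against their labels over the other alternatives.

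The F test within the bulb called 138 genes, and 70 with a pseudocount of 0.1, 256 without a filter, 34 after rescaling, 51 after quantile normalization, 1028 with array weights, 46 with a term for the number series, 737 with the first series alone, 228 without both libraries that went against their labels and, in an analysis chosen after seeing the data, 74 without both libraries of lowest depth. Leaving out single libraries gave 62 to 659: 62 without olfactory bulb B replicate 2, 64 without E replicate 2, 80 without Neg replicate 2, 211 without D replicate 2, 72 without either brainstem Neg library, 336 and 347 without brainstem B replicate 1 and 2, and 659 and 648 without cortex D replicate 1 and 2. The cause was not tested. Of the 7 genes, 2 were called by the F test with the first series alone, Clca3a1 and Frzb, and 0 in each analysis that left out a single library. Pairs of gene and population called numbered 2 with the first series alone, 2 without both libraries that went against their labels, and 0 to 2 with single libraries left out. Fbln2 in E was called without olfactory bulb Neg replicate 2 or D replicate 2, brainstem B replicate 1 or 2, or any library of cortex D, brainstem D or cortex E, Omp in E without either brainstem D library and Fbln2 in B without olfactory bulb Neg replicate 1. The share of all genes called in these alternative contrasts is not given here, so these calls cannot be set against it. In the main analysis that share was 4.6% in E and 1.77% in B.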
